A study of Homo sapiens with 3 samples.

Results

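MYC, the gene of a transcription factor that drives cell growth, was followed through 3 deposited libraries of 95D, an established human lung cancer cell line labelled WT. It was 1 of 5932 genes listed in the series table and held 3 listed regions in each library, chosen as every entry with the gene symbol MYC in both blocks of that table. MYC was selected on its RPM in the 3 libraries (its level in the control and its absence from the deprived ones), so those values are given as a description and carry no test. The libraries came from glucose-deprived cells (labelled glucose deficiency; glucose-free DMEM with dialyzed serum, 48 h), glutamine-deprived cells (labelled glutamine deficiency; glutamine-free DMEM with dialyzed serum, 48 h) and control cells (control conditions, 48 h), with 1 library per condition. Per the labels' protocols, RNA was captured from 95D lysates with biotinylated full-length DAMER, a long non-coding RNA, and ribosomal RNA was depleted. The sample titles call the same libraries RNA-Seq, and the labels do not settle if the control was a pulldown as well. Fewer copies of an RNA in the cell and less capture by the bait cannot be told apart in such libraries.

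MYC pairs with MAX and binds E-box sequences in DNA, where it raises transcription of genes for ribosome production, nucleotide synthesis, glycolysis and glutamine use. Both its mRNA and its protein are short-lived, its transcription answers growth signals within minutes as an immediate early gene, and MXD and MNT proteins compete with it for MAX. In lung cancer it is often amplified or overexpressed, and cells with high MYC are known to depend on glutamine.

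The libraries differed in depth and make-up. Values were deposited in RPM (reads per fixed number of reads in the library), and their steps put the totals at about 18775828 fragments for the glucose-deprived, 18301611 for the glutamine-deprived and 3781862 for the control library. ATF4, a stress-induced transcription factor, together with its pseudogenes held 99.9% of the fragments in each of the deprived libraries, which left 12936 fragments for all other RNA in the glucose-deprived and 14450.5 in the glutamine-deprived library. Of the epithelial and lung markers 1 of 13 was listed, KRT8 with 0 fragments in both deprived libraries and 24 in the control. Of the mesenchymal markers 3 of 7 were listed, and VIM led with 0, 0 and 292 fragments in the glucose-deprived, glutamine-deprived and control libraries, while SNAI2 and ZEB1 had 0, 0 and 23.5 and 0, 0 and 19. The surfactant, NAPSA and NKX2-1 markers of lung epithelium were looked up and were not among the listed genes, so the lung label rests on the submitters' word. Of 18 markers of other cell types 2 were listed, NCAM1 with 63 and CSF1R with 38.5 control fragments.

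MYC (ENSG00000136997) lies on chromosome 8, 127735434 to 127741434, on the plus strand in the GRCh38 coordinates of GENCODE release 29, and is protein-coding. Its longest annotated transcript has 3 exons and 2366 nt, its merged exons cover 3001 bases, and 0 other annotated genes overlap it. The deposited regions carry no coordinates, so they cannot be placed on exons or untranslated parts. The match of 3 regions to 3 exons is no guide, since JUN, whose longest transcript is 1 exon, also had 3 regions. Of the listed genes, 28.1% had 3 regions or more, and the median gene had 1.

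Every fragment of MYC in the listed regions came from the control library. The first region in the order of the table had 0 fragments in the glucose-deprived library, 0 in the glutamine-deprived library and 130 in the control (95% Poisson interval 109 to 154). The second region had 0, 0 and 233 (204 to 265), and the third 0, 0 and 202 (175 to 232). Within the control, region 1 lay below both others beyond counting error and the intervals of regions 2 and 3 overlapped. Their shares of the control fragments of MYC were 23.0%, 41.2% and 35.8%, and region lengths are not given, so these are not densities. The highest region held 1.79 times the fragments of the lowest. Among 667 listed genes with 3 regions this ratio had a median of 1.98 (upper quartile 2.99), so the control fragments of MYC were spread about as evenly as those of other such genes. PCR duplicates are not independent molecules, so this interval and those that follow cover counting error only.

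**Figure D1:**
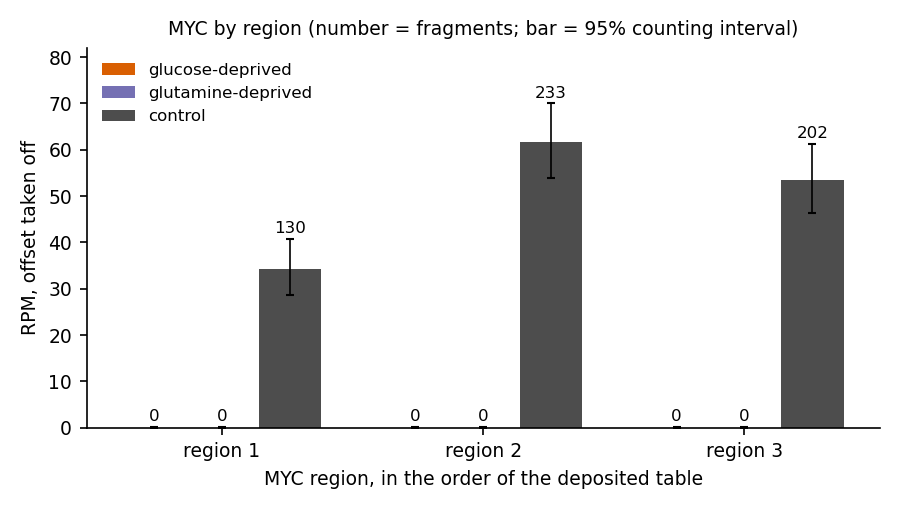
MYC in each of its 3 listed regions (x axis) as RPM after an added offset was taken off (y axis), for the glucose-deprived, glutamine-deprived and control libraries. Numbers above the bars are fragments and error bars are 95% Poisson intervals; the deprived libraries had 0 fragments in each region, against 130, 233 and 202 in the control.

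Summed over its regions, MYC stood at 0.0799 RPM as deposited in the glucose-deprived library, 0.0820 RPM in the glutamine-deprived library and 150 RPM in the control. The deprived values consist wholly of the offset of 0.5 fragment that each deposited region carries. Without it MYC had 0 fragments, 0 fragments and 565 fragments (519 to 614), which is 149 RPM (137 to 162) in the control, or 0.0149% of that library. A count of 0 allows up to 3 fragments, equal to 0.160 RPM for the glucose-deprived and 0.164 RPM for the glutamine-deprived library. The deprived values are therefore limits and not levels.

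On the scale of log2(RPM + 1), where changes of low values come out too small, MYC was at −7.13 in the glucose-deprived over the control library and −7.12 in the glutamine-deprived over the control library. The exact conditional binomial intervals of the fragment ratio, which have no other end at 0 fragments, ended at 758-fold lower in the glucose-deprived and 739-fold lower in the glutamine-deprived library. Both comparisons share the control library, and MYC contributed no fragment to either deprived one. No replicate check exists, and no p-value is given.

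These numbers place MYC with nearly every listed gene. At least 2-fold lower values were found for 99.9% of the 5931 genes tested in the glucose-deprived and 99.9% of the 5928 tested in the glutamine-deprived library, where a gene was tested at 1 RPM or more in either library. The median log2 ratio over those genes was −3.92 and −3.93. Like MYC, 91.0% of these lower genes had no fragment left (0) after glucose deprivation and 99.3% after glutamine deprivation. How regions entered the list is not stated in the labels, and each entry lower in the glucose-deprived library had at least 9.5 control fragments.

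Scaled to RNA outside ATF4 and its pseudogenes, the absence of MYC was within counting error of its control share. At that share, 1.93 MYC fragments would have fallen in the glucose-deprived and 2.16 in the glutamine-deprived library. The interval of the ratio at 0 fragments reached 1.91-fold higher in the glucose-deprived library and 1.71-fold higher in the glutamine-deprived library. Relative to RNA other than ATF4, neither a complete loss of MYC nor a higher level within those values was detectable at this depth. A kept rate was taken over listed regions of nuclear genes or of no gene. Only regions lower in the deprived library entered, without ATF4, its pseudogenes and RNF157, a choice that holds the rate down. These regions kept 1.09 fragments per 1000 control fragments in the glucose-deprived library (1.02 to 1.17). That corresponds to 0.616 fragments for a gene with the control count of MYC. In the glutamine-deprived library they kept 0.0446 per 1000 (0.0309 to 0.0624), which corresponds to 0.0252 fragments. A value of 0 for MYC is the whole number nearest to the second of these and within counting error of the first. Of the fragments outside ATF4 and its pseudogenes, these regions held 6.42% in the glucose-deprived and 0.235% in the glutamine-deprived library. In the control the same regions held 761105 and 761712 of 3781862 fragments. The RNA outside ATF4 thus differed in make-up between the libraries, and the control share of MYC is not a like-for-like reference.

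**Figure D2:**
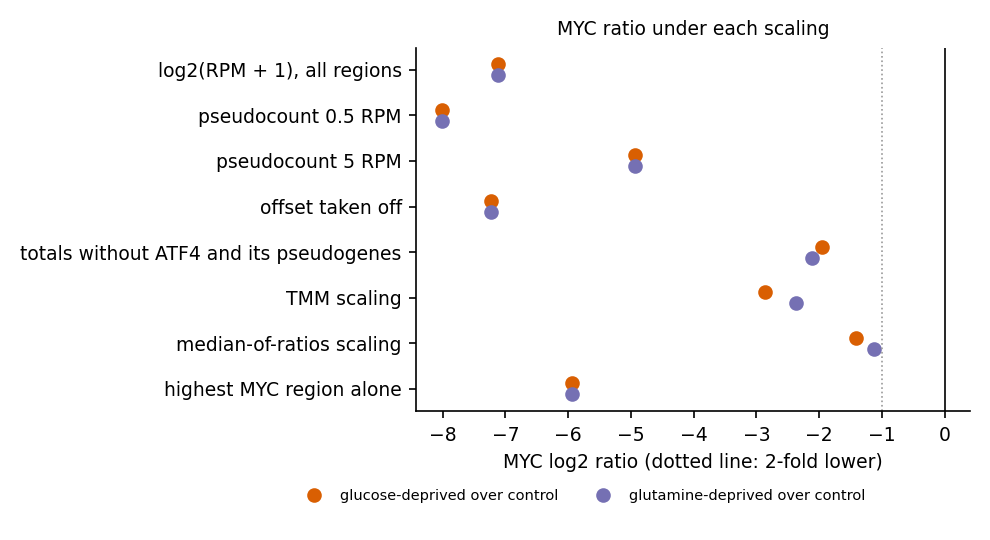
Log2 ratio of MYC (x axis) in the glucose-deprived and glutamine-deprived libraries over the control under the reported setting and each alternative (y axis); the dotted line marks 2-fold lower. The ratios run from −8.02 to −1.12, and each rests on a pseudocount because MYC had 0 fragments in both deprived libraries.

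From 10 control fragments upward, the share of genes with a fragment in the glucose-deprived library was higher in each higher class of control count. Of listed genes with 300 to under 1000 control fragments, the class that holds MYC, 289 of 430 (67.2%) had 0 fragments in the glucose-deprived library and 422 of 430 (98.1%) had 0 in the glutamine-deprived library. From 1000 control fragments upward, 11 of 70 and 60 of 70 genes had 0. From 30 to under 100 control fragments, 2209 of 2317 and 2306 of 2317 had 0. MYC was therefore in the larger part of its class in both libraries. Below 10 control fragments the table lists few genes, and 4 of 5 had a fragment in the glucose-deprived library and 0 of 1 in the glutamine-deprived library. Genes that share a region are counted separately in these classes, and ATF4, its pseudogenes and RNF157 are left out of them.

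**Figure D3:**
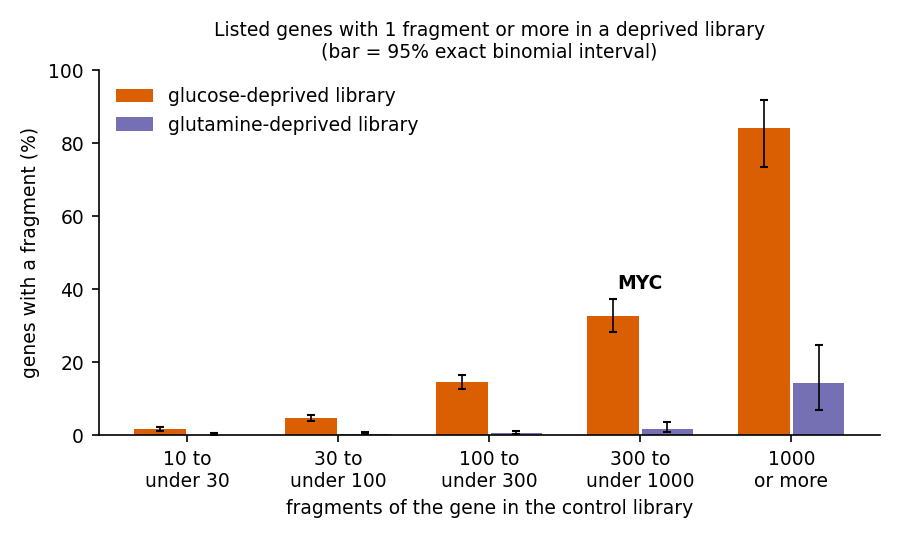
Share of listed genes with 1 fragment or more (y axis, percent) in the glucose-deprived and glutamine-deprived libraries by the number of fragments the gene had in the control (x axis, from 10 upward); error bars are 95% exact binomial intervals. The share is 32.8% and 1.86% in the class of MYC and 84.3% and 14.3% in the highest class. ATF4, its pseudogenes and RNF157 are left out.

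In the control library MYC was among the listed genes with more fragments. By summed RPM it ranked 190 of 5932 genes, and 136 of 4507 protein-coding genes. At the ends of its counting interval the rank was 217 and 167. Per kilobase of merged exons MYC stood at 49.9 RPM, against a median of 4.29 over 5796 listed genes with an annotated length. It ranked 397 there, and 97 among protein-coding genes. This scale divides listed fragments by all exons, listed or not, so it compares genes of different length only roughly. MAP3K13 and RPL4P4, which share 1 region, came out at 11.8 and 116 RPM per kilobase. The 565 fragments of MYC were 0.0658% of those in listed regions lower in the deprived libraries, without ATF4, its pseudogenes and RNF157. Those regions held 22.7% of the control fragments. Its neighbours on the per-kilobase scale were chosen for their closeness on it, so their likeness to MYC is fixed by that choice. The protein-coding gene ANP32B, which encodes a histone chaperone, stood at 49.8 RPM per kilobase (44.4 to 55.0 without the offset). For MYC the interval without the offset was 45.8 to 54.1. The other 5 neighbours were 3 pseudogenes, H3P6 and PLA2G10DP among them, 1 antisense gene and 1 unnamed protein-coding gene, at 49.8 to 50.2 RPM per kilobase.

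**Figure D4:**
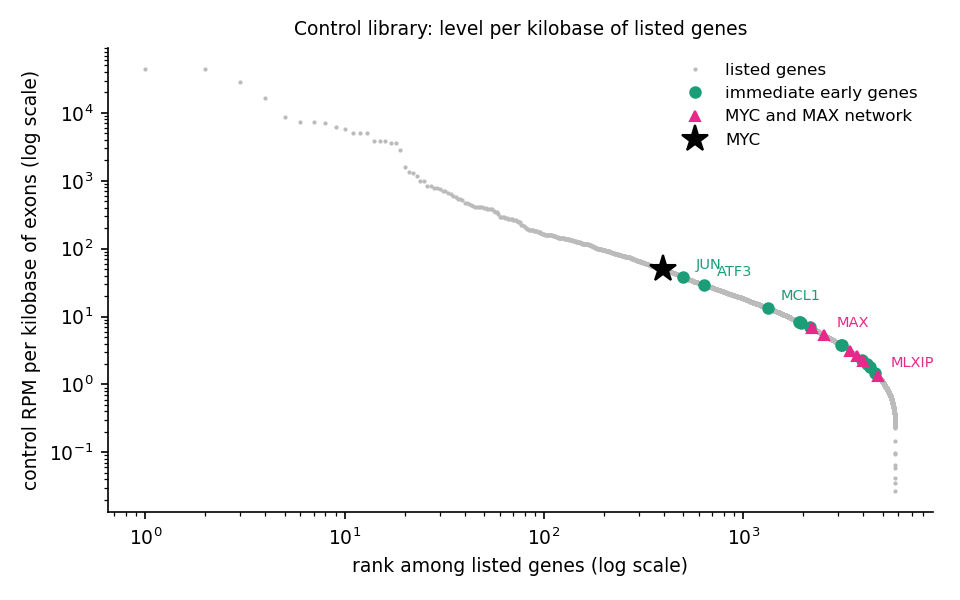
Control level in RPM per kilobase of merged exons (y axis, log scale) against rank (x axis, log scale) for listed genes, with MYC (star), other immediate early genes (circles) and other members of the MAX network (triangles). MYC, at 49.9 RPM per kilobase and rank 397, stands above each of the marked genes.

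The genes most like MYC over the 3 libraries, by Euclidean distance of log2(RPM + 1) with the offset taken off, had 0 fragments in both deprived libraries and nearly the same control count. MAP3K13, a kinase of the JNK cascade, and RPL4P4, a pseudogene of a ribosomal protein gene, share 1 region with 565 control fragments at a distance of 0 (the pseudogene lies inside MAP3K13), and reads there cannot be assigned to either or told from the parent gene. SMC4, a condensin subunit, and an unnamed gene that overlaps it on the opposite strand had 14 regions and 561 fragments, and SMARCC1, a subunit of the SWI/SNF chromatin remodeler, had 569.5. With most listed genes at 0 in both deprived libraries, this likeness reflects the control count alone.

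Of the MYC and MAX network, 8 of 13 genes were listed. All 8, MYC included, were at least 2-fold lower in RPM + 1 in both deprived libraries, beside 99.9% of all tested genes in each. The median log2 ratio of these 8 was −4.35 in each comparison. In the glucose-deprived library 6 of the 8 had 0 fragments and in the glutamine-deprived library all 8, beside 91.0% and 99.3% of all lower genes. MGA, a very large MAX partner that represses E-box genes, had 1, 0 and 442.5 fragments in the glucose-deprived, glutamine-deprived and control libraries. MXD3, a MAX partner that competes with MYC, had 2, 0 and 129.5. MAX itself, the partner that MYC needs to bind DNA, had 0, 0 and 87.5. Per kilobase of exons, MAX stood at 5.34 RPM in the control, against 49.9 RPM for MYC, and MGA and MXD3 both at 6.72 RPM. The other 4 members had 0 fragments in both deprived libraries. They were MLXIP (69.5 control fragments) and MLXIPL (47), the glucose-sensing factors MondoA and ChREBP, their partner MLX (35.5), and the MYC antagonist MXI1 (53.5). MYC thus had the highest value per kilobase of the listed members in the control library. Its paralogs MYCN and MYCL were not among the listed genes, so their levels are not known here.

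Among immediate early genes, 14 of 32 were listed. All 14, MYC included, were lower in both comparisons, as were 99.9% of all tested genes in each. The median log2 ratio of these 14 was −4.02 in each comparison. In the glucose-deprived library 13 of the 14 had 0 fragments and in the glutamine-deprived library 14, beside 91.0% and 99.3% of all lower genes. JUN, a subunit of the AP-1 transcription factor, had 2, 0 and 510.5 fragments in the glucose-deprived, glutamine-deprived and control libraries. ATF3, a stress-induced repressor known as a target of ATF4, had 0, 0 and 451.5. MCL1, an anti-apoptotic BCL2 relative with a short half-life, had 0, 0 and 217.5. These 3 and MYC led the list in the control. Per kilobase the order in the control was MYC at 49.9, JUN at 38.2, ATF3 at 29.6 and MCL1 at 13.3 RPM. The remaining 10 had 0 fragments in both deprived libraries and 21 to 123.5 in the control. They were the zinc finger factors KLF10 (123.5), KLF6 (34) and EGR1 (21), the matricellular protein gene CCN1 (63.5), the phosphatase DUSP1 (62), IER5 (59), the AP-1 subunit JUND (56), the mRNA decay factors ZFP36L2 (53) and ZFP36L1 (38.5), and SRF (36), the factor that switches on many genes of this class.

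Genes that act on MYC itself are read against the same background, in which 99.9% of tested genes were lower in each comparison. No fragment was left for 91.0% and 99.3% of these lower genes after glucose and glutamine deprivation. Of the proteins that work with MYC on chromatin, 15 of 19 were listed, all 15 lower in both comparisons, with 10 and 15 at 0 fragments in the glucose-deprived and glutamine-deprived libraries. The acetyltransferase gene CREBBP had 0, 0 and 467.5 fragments in the glucose-deprived, glutamine-deprived and control libraries, EP400 of the TIP60 complex 0, 0 and 351, and HCFC1, a cofactor that binds MYC, 2, 0 and 335.5. PAF1, of an elongation complex, had 3, 0 and 118.5 fragments, and the topoisomerase TOP2A 2, 0 and 302.5. Scaled to RNA outside the ATF4 family, the interval of HCFC1 in the glucose-deprived library (0.210 to 6.33) included 1. That of PAF1 lay at 1.498-fold to 22.1-fold higher, not adjusted for the number of genes looked at. PAF1 was named for its fragments in that same library, so its interval carries no test and shows no rise. Of genes for the turnover of MYC protein, 12 of 20 were listed and lower, with 8 and 12 at 0 fragments. The ubiquitin ligase HUWE1, spread over 27 regions, had 3, 0 and 1168 fragments, SET, an inhibitor of the phosphatase PP2A, 1, 0 and 291.5, and the ligase STUB1 0, 0 and 182. USP36, a nucleolar deubiquitinase of MYC, had 1, 0 and 134, and the kinase PLK1 1, 0 and 85.

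Genes for proteins that bind MYC mRNA or set its translation were all listed, 19 of 19. All were lower in both comparisons, beside 99.9% of all tested genes in each. Of them 13 and 19 were at 0 fragments, beside 91.0% and 99.3% of all lower genes. HNRNPC had 3, 0 and 815 fragments in the glucose-deprived, glutamine-deprived and control libraries, and the translation initiation factor EIF4G1 4, 0 and 577. IGF2BP1, which shields MYC mRNA from decay, had 0, 0 and 439, the helicase DDX3X 0, 0 and 416, and YBX1 and PCBP2, both RNA-binding proteins, 2, 0 and 401.5 and 2, 0 and 387.5. Scaled to RNA outside the ATF4 family, the interval of the glucose-deprived over the control library was 0.550 to 5.22 for EIF4G1, whose control count was close to that of MYC, and it overlapped that of MYC, which ran from 0 to 1.91. Of factors that act on MYC transcription, 10 of 22 were listed and lower, with 9 and 10 at 0. CNBP, which binds a control element of the MYC promoter, had 0, 0 and 496.5 fragments. FUBP1, which binds the far upstream element of MYC, had 1, 0 and 306. E2F3 had 0, 0 and 252.5, and the Mediator subunit MED1 0, 0 and 202. Of 10 genes fixed as neighbours of MYC, PVT1 among them, 0 were among the listed genes, so their levels were not analysed here.

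Known targets of MYC were tallied in 3 lists. Their counts at 0 stand beside 91.0% and 99.3% of all lower genes at 0 in the glucose-deprived and glutamine-deprived libraries. In ribosome biogenesis 22 of 32 were listed, with 18 and 22 at 0 fragments in the glucose-deprived and glutamine-deprived libraries. NCL, nucleolin of the nucleolus, had 3, 0 and 1943.5 fragments, the helicase DDX21 1, 0 and 1054.5, NPM1, nucleophosmin, 0, 0 and 619, and NOLC1 3, 0 and 615.5. NOP58, a core protein of box C/D snoRNPs, had 1, 0 and 367.5. The metabolic targets had 26 of 28 listed, with 23 and 26 at 0 fragments. GAPDH of glycolysis had 6, 0 and 723.5 fragments, the amino acid transporter SLC7A5 0, 0 and 505.5, PAICS of purine synthesis 0, 0 and 451.5, and ENO1 0, 0 and 397.5. FASN of fatty acid synthesis had 2, 0 and 108, and SRM of polyamine synthesis 1, 0 and 121. For the cell cycle targets, 16 of 23 were listed, with 12 and 15 at 0. CCND2, cyclin D2, had 1, 0 and 797 fragments, the replicative helicase subunits MCM4 0, 0 and 517 and MCM3 1, 0 and 454, and the polymerase clamp PCNA 0, 0 and 411.5. MCM2 and E2F2 each had 1 fragment in the glucose-deprived and 0 in the glutamine-deprived library, against 337 and 125 in the control. GADD45A, a growth arrest gene that MYC represses, was the 1 list member with a fragment in the glutamine-deprived library, with 0, 1 and 194.5 (named here after its value was seen).

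All members listed of these target lists were lower in both comparisons, beside 99.9% of tested genes in each, so their counts say nothing particular about MYC targets. The median log2 ratios in the glucose-deprived and glutamine-deprived libraries were −5.61 and −5.60 for ribosome biogenesis and −4.93 and −4.96 for metabolism. They were −5.34 and −5.30 for the cell cycle, beside −3.92 and −3.93 over all tested genes. With most members at 0 deprived fragments, these medians follow the control counts and measure no deeper drop of MYC targets. The median control counts of the 3 lists were 198, 120.75 and 161.75 fragments. In the control library 4 of 22, 1 of 26 and 1 of 16 members had more fragments than the 565 of MYC. Per kilobase in the control, among the list members named here, NCL (74.3 RPM), PCNA (74.3), CNBP (68.3), GAPDH (64.3), DDX21 (55.8) and YBX1 (55.2) stood above MYC.

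**Figure D5:**
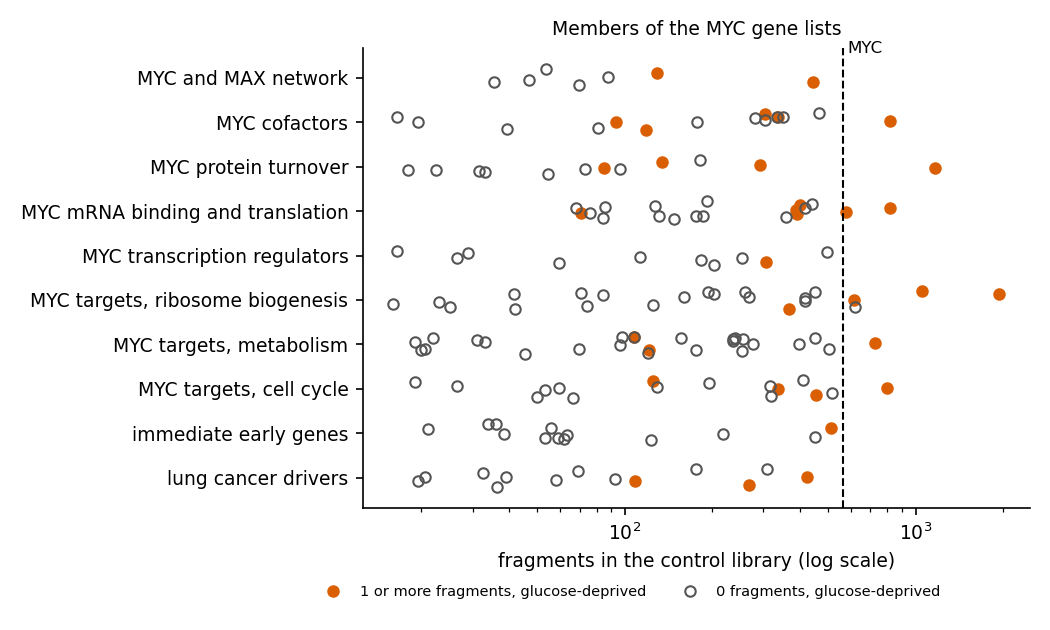
Control fragments (x axis, log scale) of each listed member of the MYC gene lists (y axis), filled where the gene had 1 fragment or more in the glucose-deprived library and open where it had 0; vertical scatter within a list has no meaning. The dashed line marks MYC at 565 control fragments, and the 3 members above 1000 control fragments (NCL, HUWE1 and DDX21) are filled.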

How the data were processed

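The submitters' processing notes name HISAT2 2.0.5 and hg38. The sources used here do not give the region calling and listing, the annotation or the use of strand. Per region, the authors deposited RPM, per the file headers, in 2 blocks that pair a control column with 1 deprived library. The lowest values show an offset of 0.5 fragment per region. RPM was divided by the step of 1 fragment, the offset taken off and the result rounded to 0.5 fragment; 99.97% of glucose-deprived, 99.98% of glutamine-deprived and 63.3% of control values were then whole. Gene values are sums over regions. Symbols came from the files or the gene name table (5932 of 5932 identifiers), lengths and coordinates from GENCODE release 29 (5796). A label ties the glutamine sample to the glucose column, and its own deposited file, identical to the glutamine column, was followed instead.

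Ratios are log2(RPM + 1), and a gene entered the 2-fold tally if 1 library or both had 1 RPM or more. Ratio intervals are exact conditional binomial, count intervals Poisson, both at 95%, and a count of 0 has a floor of 3 fragments. No p-value was computed with 1 library per condition. Named genes are all listed members of the MAX network and immediate early lists, of other lists the 4 highest in the control and up to 4 with a deprived fragment, the 5 genes most like MYC and 3 neighbours on each side; of these the lung cancer drivers stand in the closing part. Of the genes this rule names, 1 is not reported here. MYC and the lists were chosen with earlier results of these data known.

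Alternatives were other pseudocounts, the offset taken off, scaling of the fragments plus 0.5 by TMM (edgeR 4.0.16) or by median-of-ratios factors (DESeq2 1.42.0), totals without ATF4 and its pseudogenes, other filters and 1 region alone. The steps were tested on simulated data. Software was R 4.3.3 and Python 3.11.15 with numpy 2.4.6, scipy 1.17.1, pandas 2.3.3 and matplotlib 3.10.9.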

Additional observations from a re-analysis of the deposited data

How the results depend on the processing

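MYC had 0 fragments in the glucose-deprived and glutamine-deprived libraries, so the sign and the size of its ratio rest on the scaling and on what was added to 0, and a negative sign under each alternative run shows no stability. The log2 ratio over the control was −8.02 and −8.01 with a pseudocount of 0.5 RPM, −4.93 and −4.93 with 5 RPM, −7.23 and −7.23 with the offset taken off, and −5.93 and −5.93 for the highest MYC region alone. Scaled by totals without ATF4 and its pseudogenes it was −1.95 and −2.11, with TMM −2.86 and −2.37, and with median-of-ratios −1.41 and −1.12. The medians of all tested genes were then 1.53 and 1.24, 0.62 and 0.98, and 2.07 and 2.23, values that owe their sign to the 0.5 fragment added to genes at 0. Under these 3 scalings 354 and 601, 931 and 746, and 165 and 207 genes were at least 2-fold lower, in place of 5924 and 5924. The median-of-ratios factors rest on few genes, since 23 of 5928 had fragments in all 3 libraries. TMM pairs each deprived library with the control. It could draw on no more than the 539 genes with a fragment in the glucose-deprived and the 46 in the glutamine-deprived library. The rank of MYC in the control was 190, 184 with distinct regions, 189 without the offset and 397 per kilobase. No paired analysis was possible because each condition has 1 library.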

Other observations

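Beside MYC, 13 of the other 22 genes fixed as drivers of lung cancer were listed, and all 14 with MYC had lower RPM in both deprived libraries, as did 99.9% of all tested genes in each. SMARCA4, the ATPase of the SWI/SNF remodeler, had 1, 0 and 425 fragments in the glucose-deprived, glutamine-deprived and control libraries. NF1, a RAS inhibitor, had 0, 0 and 308, ARID1A, another SWI/SNF subunit, 1, 0 and 268.5, and the RAS gene NRAS 1, 0 and 108.5. Per kilobase of exons MYC, at 49.9 RPM in the control, stood above each of them, SMARCA4 at 7.22, NRAS at 6.57, ARID1A at 4.51 and NF1 at 3.06 RPM. The list had 11 and 14 members at 0 fragments in the glucose-deprived and glutamine-deprived libraries, beside 91.0% and 99.3% of all lower genes.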
